A study of Mus musculus with 9 samples.

Results

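The saline-injected control group of a mouse striatum array series is described here on its own. Its members are the 3 arrays of the control group among the 9 arrays of the series, and the treated arrays were not used in any step. The controls were male C57BL/6J mice aged 56 days, injected with saline, and the tissue was the left and right striatum, with 1 array for each mouse. The other 6 mice, of the same strain, sex and age, received methamphetamine or MPTP, which are toxic to dopamine neurons. Within a group the arrays are biological replicates, according to the submitters. The sources used here do not give the number or the timing of the injections. The 3 mice are called control 1, control 2 and control 3, and a series of 3 values is always given in that order.

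The striatum is the main input station of the basal ganglia. Most of its neurons are GABAergic spiny projection neurons, which receive glutamatergic input from cortex and thalamus and dopaminergic input from the midbrain. They form a direct output pathway, whose cells carry the D1 dopamine receptor and the peptides substance P and dynorphin, and an indirect pathway, whose cells carry the D2 receptor and enkephalin. The rest of the tissue is made of interneurons, astrocytes, myelinating oligodendrocytes that ensheath the fibre bundles crossing the striatum, microglia and blood vessels. The question addressed was which genes give the strongest signal in this tissue without toxin, and how far 3 mice of 1 group differ from each other.

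Each array carried 22690 probe sets, groups of short oligonucleotides whose brightness is summarised as 1 signal. Of these, 20380 had 1 gene symbol and stood for 12393 genes, with the brightest probe set, by mean signal, standing for each gene. A mean signal above 741 was reached by 7914 genes, 63.9% of all. The bacterial RNA spikes added in rising amounts gave mean signals of 1143, 3166, 12503 and 55976 for bioB, bioC, bioD and cre, in that order, so the threshold lay below the dimmest of them. The threshold is not a detection call: 2310030G06Rik (742) and Ghrhr (742) lay just above it with Cyp21a1 and Col18a1, and Pkp3 (741) and Ficd (741) lay just below it with Surf2 and Col4a6. Spearman correlations over all probe sets were 0.974 between controls 1 and 2, 0.979 between controls 1 and 3 and 0.982 between controls 2 and 3. Probe sets at the 3' end of control transcripts, set against those at the 5' end as a measure of RNA integrity, gave signal ratios of 0.828 to 0.858 for Gapdh, 1.07 to 1.21 for Actb, 2.46 to 3.38 for pyruvate carboxylase and 2.20 to 2.81 for the transferrin receptor. Control 3 had the highest ratio of these except for Actb. Ranks below order probe-set signals, not transcript numbers, because probe sets bind with different strength. Among 3004 genes with another probe set above the threshold, the signals of the pair differed by a median of 1.59-fold, and by more than 4-fold for 250 genes (8.32%).

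The spiny neuron markers were bright on all 3 arrays. Penk, which encodes the enkephalin precursor, had signals of 50590.4, 59113 and 56032 on controls 1, 2 and 3, a mean of 55245 ± 4315 (SD, n = 3) and rank 11 among all genes. Ppp1r1b, which encodes the dopamine-regulated phosphatase inhibitor DARPP-32, had signals of 27711, 35822 and 31897 and rank 111. The D2 dopamine receptor gene Drd2 had signals of 19254, 20549.9 and 17885 and rank 322. The substance P precursor gene Tac1 had signals of 27008, 24939 and 22161 and rank 201. Penk, Ppp1r1b and Drd2 were each highest on control 2, whereas Tac1 was highest on control 1 and lowest on control 3. All 4 genes lay within a 1.3-fold range over the 3 mice. Their bright signals go with the tissue label but do not test it, because no other tissue was compared.

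All 25 measured genes of the shared spiny neuron list exceeded the threshold, with a median signal of 20476 against 2863 for all genes above it. Pcp4, a calmodulin regulator, was the brightest at 65504, 59144 and 64314 and ranked 6. It was followed by the small G protein gene Rasd2 (mean 42555), the calcium sensor Hpca (41646), the phosphodiesterase Pde1b (39823) and the phosphoprotein Arpp19 (38357). The dual-specificity phosphodiesterase Pde10a had signals of 20047, 24989 and 17333, and the transcription factor Bcl11b, which specifies spiny neurons, had signals of 15953, 19876 and 13869. Both were highest on control 2 and lowest on control 3. In the list as a whole, 16 of the 25 genes were highest on control 2, where 32.1% of all genes above the threshold were highest, and 14 were lowest on control 1, where 33.4% of all genes were lowest. The median SD of log2 signal in the list was 0.09, below the median of 0.14 over all genes above the threshold. Bright genes vary less in general: the brightest of 10 classes of these genes by signal, from 11664 up, also had a median SD of 0.09.

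Of the genes above the threshold, 131 (1.66%) varied over 2-fold, meaning that the highest of the 3 signals was more than 2 times the lowest. List counts are to be set beside that share and beside the 63.9% of all genes above the threshold. At 1.66% a short list often has 0 genes over 2-fold. A count of 0 is thus not read as a trait of the list. With the 7914 genes and their probe sets held fixed, 49 varied over 2-fold without control 1, 43 without control 2 and 86 without control 3, and the count was 54 among genes with every array above the threshold. Of the 25 shared spiny neuron genes, 2 varied over 2-fold. The cannabinoid receptor gene Cnr1 had signals of 2941, 5933 and 4016, and the phosphatase regulator gene Ppp1r16b had signals of 578, 1173 and 648. Both were highest on control 2 and lowest on control 1, and Ppp1r16b lay close to the threshold. Without control 1 or without control 2, 0 genes of the list varied over 2-fold. The retinoid receptor gene Rxrg (6593, 9738 and 7548) had the same array order over a narrower range.

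The direct-pathway list had 6 of 8 measured genes above the threshold and the indirect-pathway list 4 of 5, with 0 over 2-fold in either. After Tac1, the direct-pathway genes were Sfxn1, a mitochondrial serine transporter gene (8402, 7852 and 7539), the transcription factor genes Isl1 (1904, 2504 and 2341), Zfp521 (1894, 1865 and 2105) and Ebf1 (1419.7, 1084 and 988), and the dynorphin precursor gene Pdyn. Pdyn had signals of 1873, 1822 and 1709 and rank 5358. The muscarinic receptor gene Chrm4 (mean 700.3) and the transcriptional coactivator gene Eya1 (542) lay below the threshold. In the indirect-pathway list, Cd4 had signals of 3729, 4782 and 3292 and Plxdc1 of 1468, 1449 and 1570.2, and Upb1 (mean 619) lay below the threshold. Drd1, Adora2a and Gpr6 had no probe set with a single symbol in the annotation used and are not analysed here.

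**Figure D1:**
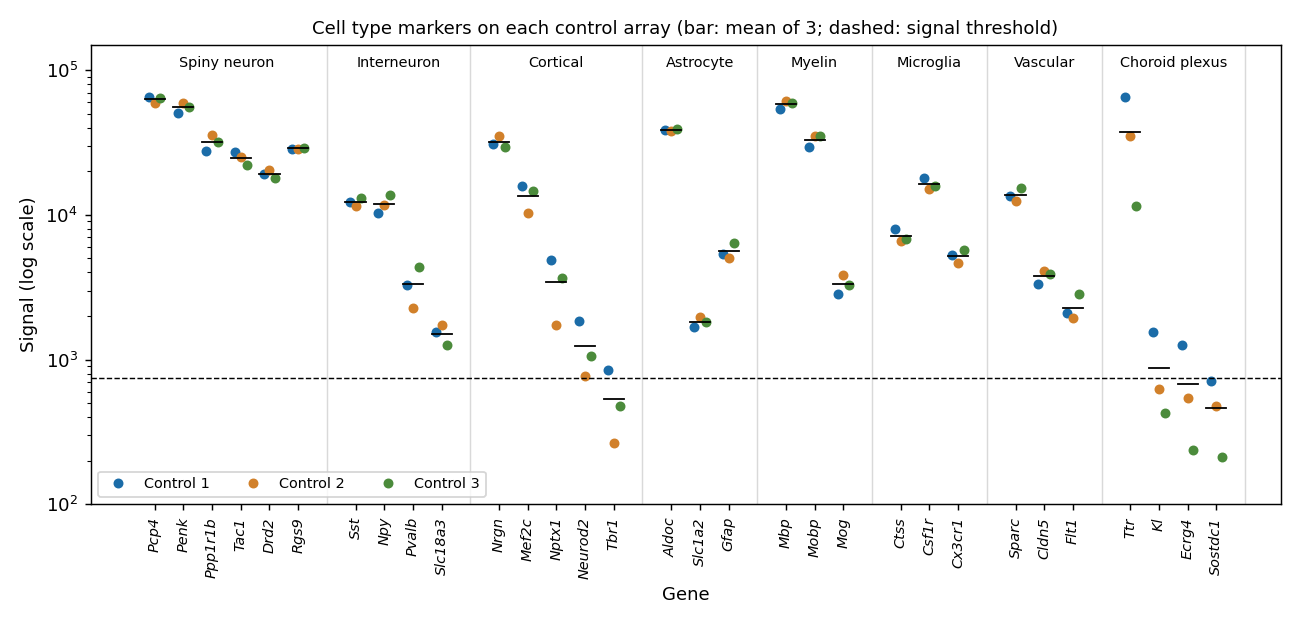
Signal (log axis) of markers of 8 cell types on each of the 3 control arrays, with 1 point for each mouse, a bar at the mean of 3 and a dashed line at the signal threshold of 741. Spiny neuron, astrocyte and myelin points lie close together. Of the genes drawn, cortical neuron genes other than Nrgn are lowest on control 2, and choroid plexus genes are highest on control 1 and lowest on control 3. Other genes of these lists differ, such as Rorb, lowest on control 1, and Foxj1, highest on control 3.

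The 25 brightest genes were a mixture of housekeeping, neuronal and myelin genes. Actb, encoding beta-actin, came first with signals of 72620.2, 73473 and 71949, followed by the translation factor gene Eef1a1 (71735), the mitochondrially encoded complex I gene ND5 (71245), the ferritin heavy chain gene Fth1 (70511) and Tpt1 (63497). Next came Pcp4, the calcineurin catalytic subunit gene Ppp3ca (62529), Ndrg4 (60311), the myelin basic protein gene Mbp (58059), the complex III gene Uqcrb (56746) and Penk. The remaining 14 were Ckb, Selenow, Rpl41, Rps29, Norad, Cst3, Cox6a1, App, Atp2a2, Aplp1, Atp1b1, Rpl38, Ncdn and Hspa8, the last at 46119. These 25 genes held 3.31%, 3.41% and 3.42% of the summed signal of all genes on controls 1, 2 and 3, and the brightest 1000 genes held 45.0% to 45.3%. The signal was thus spread over many genes on every array.

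Of the 100 brightest genes, 46 belonged to a gene list. Respiratory chain subunits supplied 11, ribosomal proteins 8 and shared spiny neuron markers 7, namely Pcp4, Rasd2, Hpca, Pde1b, Arpp19, Arpp21 and Rgs4. Astrocyte genes supplied 5, myelin genes 3 (Mbp, Cnp and Mobp), and synaptic vesicle genes 3 (Snap25, Dnm1 and Cplx1). The choroid plexus gene Ttr and the immediate early gene Egr1 were also among the 100.

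**Figure D2:**
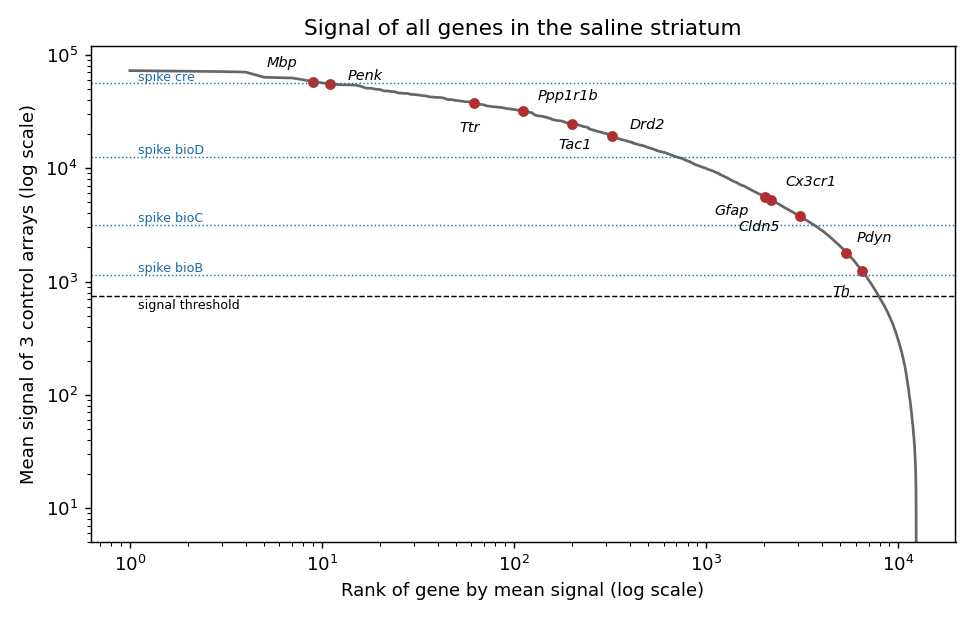
Mean signal of 3 control arrays (log axis) against the rank of each of 12393 genes (log axis), with named genes as points, the means of 4 RNA spikes as dotted lines and the signal threshold of 741 as a dashed line. The spiny neuron markers Penk, Ppp1r1b, Tac1 and Drd2 lie above the bioD spike, and Th, the gene of the rate-limiting enzyme of dopamine synthesis, lies near bioB.

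Astrocyte genes were above the threshold without exception, 28 of 28 (63.9% of all genes), and 0 varied over 2-fold (1.66% of all genes above the threshold). The brightest were the protease inhibitor gene Cst3 (46146, 52483 and 53974), the carboxypeptidase gene Cpe (mean 40348), the glycolytic enzyme gene Aldoc (38659.6), the lipid carrier gene Apoe (34837) and Clu (33526). Several of these are also transcribed by neurons, and bulk tissue does not tell the sources apart. Gfap, the astrocyte intermediate filament gene, had signals of 5403, 5020.2 and 6436. The glutamate transporter gene Slc1a3 had the widest spread of the list, with signals of 11289, 7623 and 9840.1, lowest on control 2, but its second probe set (6073, 5912 and 5082) was lowest on control 3. In bulk tissue, fewer cells of a type and less RNA per cell cannot be told apart.

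In the oligodendrocyte list 24 of 25 genes were above the threshold and 0 varied over 2-fold. Mbp had signals of 53730.3, 61339 and 59108, the myelin enzyme gene Cnp 35769.8, 38437 and 37362, and the myelin protein gene Mobp 29304, 34903 and 34874. All 3 were lowest on control 1. The myelin transcription factor gene Myrf (3357, 5418 and 5084), the crystallin gene Cryab (6166, 9014 and 8539) and the galactolipid synthesis gene Ugt8a (7844, 11473 and 10416) had the same order, with control 2 highest. In the list as a whole 16 of 24 genes were lowest on control 1 (33.4% of all genes above the threshold) and 15 were highest on control 2 (32.1%), over ranges of at most 1.61-fold. Of the 12 second probe sets, 9 were lowest on control 1 (39.8% of all 3004 second probe sets) and 7 were highest on control 2 (42.1%). Oligodendrocyte precursor genes were above the threshold in 9 of 9 cases, led by Cspg5 (mean 12564) and with the receptor gene Pdgfra at 2659, and 0 varied over 2-fold.

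Microglia and macrophage genes were dimmer, with 20 of 26 above the threshold, a median signal of 2834 among those 20, and 0 over 2-fold. The colony-stimulating factor receptor gene Csf1r had signals of 17874, 15026 and 15855, the protease gene Ctss 8041, 6642 and 6762, and the complement gene C1qa 5414, 4931 and 5339. Olfml3 (1975, 1889.7 and 1034) had the widest spread and was lowest on control 3. Of the 20 genes, 13 were highest on control 1 (39.6% of all genes) and 13 were lowest on control 2 (38.2% of all genes). Of the 4 second probe sets, 3 were highest on control 1 (32.5% of all 3004). However, 1 was lowest on control 2 (28%) and 3 were lowest on control 3 (32.2%). The 6 genes below the threshold included Trem2, Aif1 and the markers of perivascular macrophages Mrc1 (mean 455) and Cd163 (208).

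Vascular genes were above the threshold in 25 of 28 cases, with 0 over 2-fold. Bsg (17996, 17123 and 17212), Sparc (13496, 12559.9 and 15344), the pericyte gene Rgs5 (10666, 12739 and 11878), Itm2a (mean 7617) and the organic anion transporter gene Slco1a4 (5274) were the brightest. The smooth muscle gene Tagln had the widest range, 1339.8, 935 and 777, and the endothelial gene Vwf lay below the threshold with Tie1 and Anpep. Meningeal and fibroblast genes reached the threshold in 6 of 13 cases, led by the prostaglandin synthase gene Ptgds (22718, 18720.2 and 24417), and Col1a1 and Col3a1 did not reach it. Blood cell genes reached it in 3 of 13 cases, at most 1955 for Ighm, and the 3 haemoglobin genes with a probe set of a single symbol, Hba-a1, Hba-a2 and Hbb-b2, stayed below it. In these 2 lists 0 genes varied over 2-fold.

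Interneuron and GABA neuron genes reached the threshold in 15 of 17 cases (63.9% of all genes). The vesicular GABA transporter gene Slc32a1 had signals of 11979.7, 13199 and 11657, the somatostatin gene Sst 12348, 11426 and 13030.1, and the neuropeptide Y gene Npy 10252, 11792 and 13631. The potassium channel gene Kcnc1 (mean 7123) and the GABA synthesis gene Gad2 (4951) followed, and Npy had the widest range of these 5, 1.33-fold. The 3 genes over 2-fold (1.66% of all genes above the threshold) were Cck (4679.9, 1745 and 4126), the serotonin receptor gene Htr3a (1255, 715 and 1903) and Vip (1209.5, 512 and 649.7). All 3 genes were lowest on control 2, and Htr3a and Vip had at least 1 array below the threshold. With the 15 genes held fixed, 0 varied over 2-fold without control 2. These genes mark small interneuron classes but are also transcribed in cortex.

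Genes of dopamine neurons and their terminals, whose cell bodies lie outside the striatum, reached the threshold in 5 of 11 cases with 0 over 2-fold. Apart from Drd2, which spiny neurons also transcribe, these were Aldh1a1 (3967, 3336 and 3902), Nr4a2 (1955, 1024 and 1673), Th (1542, 1151 and 1057) and the decarboxylase gene Ddc (1502, 1044 and 1104). The dopamine transporter gene Slc6a3 (mean 605) and the dopamine neuron transcription factor gene Pitx3 (448) lay below the threshold. Genes of neighbouring nuclei reached it in 10 of 18 cases with 0 over 2-fold. The brightest were the imprinted gene Nnat (13636) and Oxt, the oxytocin precursor gene of the hypothalamus, with signals of 4173, 3373 and 3869, while the vasopressin gene Avp had a mean of 408. Genes that define other organs served as a background check. Of 24 measured, 4 exceeded the threshold: the keratin gene Krt10 (4573), Cela1 (916), Acta1 (882) and Prm1 (755). Y-linked genes and Xist exceeded it in 4 of 4 cases, between 941 for Xist and 1437 for Eif2s3y, with 0 over 2-fold. Because the mice were male, in which Xist is not normally transcribed, signals somewhat above 741 are not read as expression.

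Housekeeping and energy genes were bright and close together on the 3 arrays. Respiratory chain genes were above the threshold in 69 of 69 cases with 0 over 2-fold, from 56746 for Uqcrb downward, and a median SD of 0.10. The complex I gene Ndufs8 had the widest spread of them, 15389, 9483 and 16481, lowest on control 2, but its second probe set gave 12348, 12346 and 11964, nearly level. Ribosomal protein genes were above it in 41 of 42 cases, led by Rpl41 (54366) and Rps29 (54156), and 1 varied over 2-fold, Rps27 (1858, 1119.7 and 917). Proteasome genes had the smallest median SD of the 29 lists, 0.07, with 31 of 31 above the threshold, 0 over 2-fold and Psmb7 (27136, 25262 and 26059.6) the brightest. Glycolysis genes were above it in 14 of 15 cases with 0 over 2-fold, and 11 of the 14 were lowest on control 2 (38.2% of all genes above the threshold). Aldoa (44365, 36361 and 39708) and Ldhb (35471, 28256 and 33516) were examples. Of the 8 second probe sets of the list, 1 was lowest on control 2 (28% of all 3004) and 4 were lowest on control 1 (39.8%).

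Genes often used as expression references were above the threshold in 16 of 16 cases with 0 over 2-fold. Actb stayed within 1.02-fold and the adaptor protein gene Ywhaz (42844, 44207 and 43468) within 1.03-fold. The glycolytic enzyme gene Pgk1 differed more, 36929, 23057 and 25857, a 1.6-fold range with control 1 highest, but its second probe set gave 22741, 24599 and 35525, with control 1 lowest. Tbp (1901, 1389 and 1755) and B2m (9032, 10774 and 11956) also differed by over 1.3-fold, while the second probe set of B2m gave 5547, 4624 and 4425, in the reverse order.

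Synaptic vesicle and release genes were above the threshold in 24 of 24 cases. Snap25, a subunit of the membrane fusion complex, had signals of 34580.0, 36616 and 38635, and the endocytic GTPase gene Dnm1 36305, 30597 and 34919.7. The complexin gene Cplx1 had signals of 30907, 26021 and 43115, highest on control 3. Vamp1, another fusion protein gene, was the 1 gene over 2-fold (3066, 2729.7 and 6242), also highest on control 3, and the syntaxin gene Stx1a (8102, 4557 and 7511) was lowest on control 2. In the list 16 of 24 genes were lowest on control 2 (38.2% of all genes). However, of the 16 second probe sets 3 were lowest on control 2 (28% of all 3004) and 8 on control 1 (39.8%). Glutamate and GABA-A receptor genes were above the threshold in 15 of 19 cases with 0 over 2-fold, led by the AMPA receptor genes Gria2 (26192, 27469.8 and 26607) and Gria1 (11424, 12205 and 11144). Gria2 stayed within 1.05-fold and the NMDA receptor gene Grin2b (1197, 1663 and 876) ranged widest.

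Over the 7914 genes above the threshold, the median fold between the highest and lowest of the 3 arrays was 1.197, and 9 in 10 genes stayed under 1.51-fold. The spread narrowed with signal. When these genes were cut by signal into 10 classes of equal size, the dimmest class had a median SD of log2 signal of 0.22, and 63 of its 792 genes varied over 2-fold. The brightest class had a median SD of 0.09, and 2 of its 792 genes did. Of the 131 genes over 2-fold, 87 had a mean below 2 times the threshold, and their median signal was 1103. Above a signal of 5000 6 of 2303 genes varied over 2-fold, namely Ttr, Srsf2, Cdk14, Sugp2, Dbp and Stmn1.

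**Figure D3:**
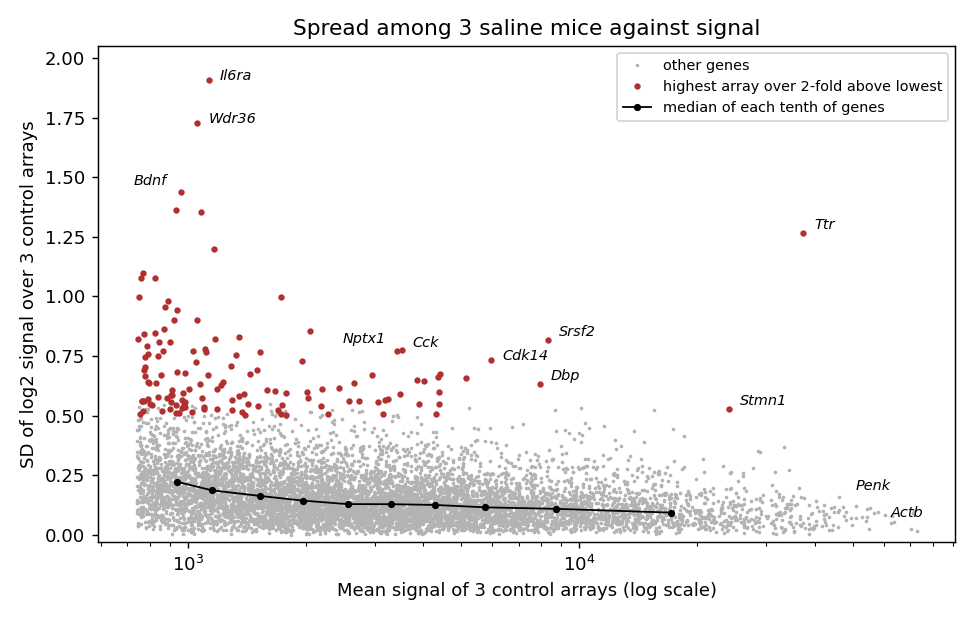
SD of log2 signal over 3 control arrays against mean signal (log axis) for 7914 genes, with the 131 genes over 2-fold in red and the median of each of 10 classes of signal as a black line. The black line runs from 0.22 at the dim end to 0.09 at the bright end, and Ttr stands alone at high signal with an SD of 1.27.

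The genes of largest SD were mostly dim. Il6ra, the interleukin 6 receptor gene, had signals of 1629, 163 and 1599, and Wdr36, which acts in ribosome assembly, had signals of 1441, 188 and 1548. The neurotrophin gene Bdnf (1518, 237 and 1123), the RNA exosome gene Exosc1 (1314, 249.6 and 1242) and the activin subunit gene Inhbb (1685, 373 and 1451) were likewise far below the threshold on control 2 and above it on the other arrays. Rps6kc1, a kinase gene, was instead low on control 1, with signals of 293, 1718 and 1223. Ttr ranked 6 by SD, and Hspa1b was among the first 10. The others of the first 25 were Map11, Smpd2, Myo15, Bad, Mfsd4a, Kl, Stxbp6, Nr2f2, Foxh1, Plekha4, Rer1, Rnaseh1, Myl4, Ciapin1, Rab13, Lix1 and Srsf2. Of these 25, 21 had a mean below 2 times the threshold.

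Dividing each SD by the median SD of genes of like signal shifted the ranking to brighter genes. This ranking shared 10 of its first 25 genes with the ranking by SD and put Ttr first, at 15.4 times the median of its signal class. It added Stmn1, a microtubule regulator gene of growing neurons (30744, 15318 and 26466), the cyclin-dependent kinase gene Cdk14 (9051, 3266 and 5552), Cck, Nptx1, Dbp, Vamp1 and the vesicular zinc transporter gene Slc30a3 (4969, 2590.2 and 5622). Stmn1, Cdk14, Cck, Nptx1, Vamp1 and Slc30a3 were each lowest on control 2. Among the 131 genes over 2-fold, control 2 stood apart as the low array for 48 (36.6%), against 20.3% of all genes above the threshold. Control 3 stood apart as the high array for 6 and as the low array for 9.

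At the other end, the thioesterase gene Acot6 had signals of 1832, 1835 and 1834, a range of 1.002-fold. Fscn1, an actin-bundling protein gene, had signals of 15742, 15730.0 and 15688, and the astrocyte calcium-binding protein gene S100b had signals of 8432, 8389 and 8414. The other 7 of the 10 steadiest genes were Pon2, 1700088E04Rik, Cept1, Gramd4, Gopc, Grpel2 and Alad. Of all genes above the threshold, 1640 (20.7%) stayed under 1.1-fold between the highest and the lowest array.

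The other probe sets of the variable genes gave a separate reading of the same 3 RNA samples. Of the 131 genes over 2-fold, 27 had another probe set above the threshold. It varied over 2-fold for 3 of them, where 2.43% of all 3004 such probe sets did, and it ordered the 3 arrays in the same way for 11 of them, where 21.1% of all did. The 3 genes were Ttr, with signals of 46062, 22855 and 6037 on the second probe set, Ccn3 (1682, 808 and 1563 and 1853, 704 and 971), and the transcription factor gene Egr2 (1094, 1831 and 2283 and 837, 1344 and 1816). A further 5 exceeded 1.5-fold on the second probe set: Dbp, Stmn1, Nptx1, Cdk14 and Pip5k1b. For 8 of the 27 the second probe set stayed under 1.2-fold. The splicing factor gene Srsf2 was the clearest case, with 4155, 7927 and 12885 on the brighter probe set and 3322, 3340.5 and 3241 on the other. The others were Bad, Lztr1, Tox4, Tubgcp4, Surf4, Sumf1 and Bzw2. Probe sets of a gene can read different transcript ends, and which one follows the gene was not tested.

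**Figure D4:**
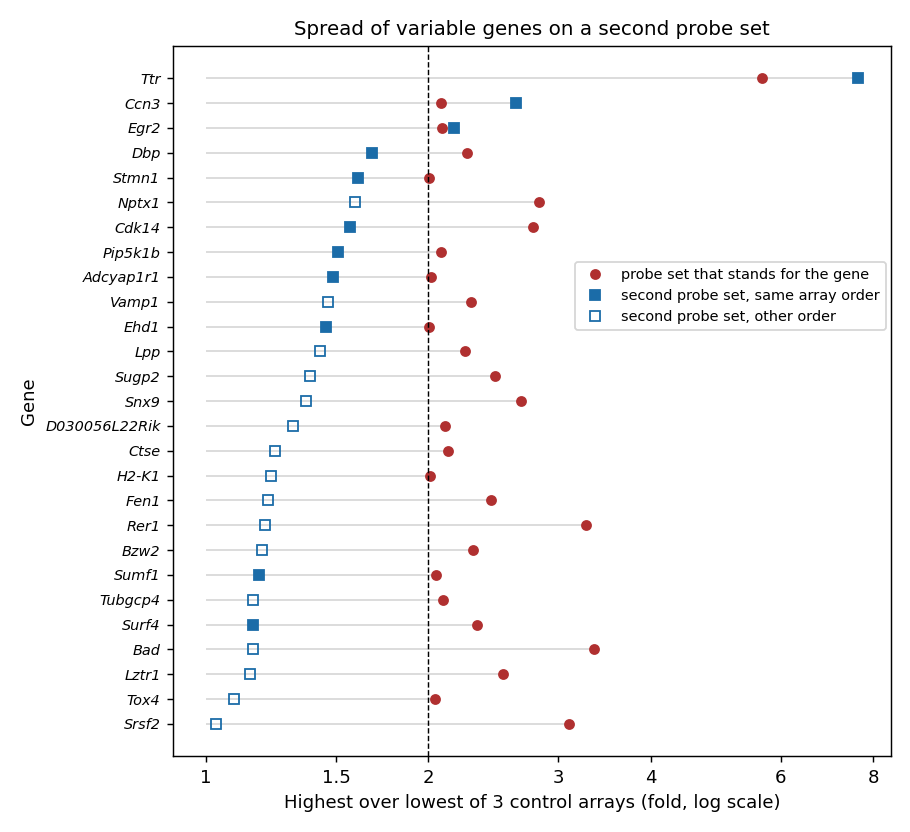
Highest over lowest of 3 control arrays (fold, log axis) for 27 genes that varied over 2-fold and had another probe set above the threshold, with the probe set that stands for the gene as a red circle and the second as a blue square, filled where it orders the arrays in the same way. Ttr, Ccn3 and Egr2 pass the dashed 2-fold line on both, whereas Srsf2 does so on 1 of its probe sets.

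Of the 29 lists, the choroid plexus list had the largest share of genes over 2-fold. The choroid plexus is the secretory epithelium of the lateral ventricle, which borders the striatum, and transthyretin, encoded by Ttr, is its most abundant product. Ttr had signals of 65370.4, 34985 and 11543, a 5.66-fold range, and the second probe set gave a wider one. The ageing-related membrane protein gene Kl had signals of 1559.8, 631 and 428, and the homeobox gene Msx1 had signals of 2372, 945 and 1178. All 3 were highest on control 1, and these were the 3 genes over 2-fold among the 9 of 21 measured choroid plexus and ependymal genes above the threshold, where 1.66% of all genes above the threshold varied over 2-fold and 63.9% of all genes were above it. Among the dimmer members, whose values were looked at after this pattern was seen, Ecrg4 (1269, 545 and 236), Sostdc1 (708, 476 and 214), Slc4a5 (566, 212 and 22.2) and Aqp1 (695, 416 and 378) had the same order as Ttr. In all, 11 of the 21 genes fell in the order of control 1, control 2, control 3 from high to low. That order was shown by 18.1% of all 12393 genes. Among the 9 genes above the threshold 4 fell in it, where 15.7% of all genes above the threshold did. The 10th percentile of log2 signal over all probe sets, 6.49, 6.29 and 6.21, itself fell in this order. Other members did not fall in this order. The ciliated cell gene Foxj1 (938, 1037 and 1806) was highest on control 3. Ace (1771, 2058 and 1537) was highest on control 2, and its second probe set gave 326, 1687 and 1400, lowest on control 1. The choroid plexus transcription factor gene Otx2 was low throughout (44.4, 165 and 28). The summed signal of the 21 genes was 84253, 50070 and 24763, of which Ttr supplied the largest share. With the 9 genes held fixed, 1 varied over 2-fold without control 1 (Ttr), 2 without control 3 (Kl and Msx1) and 3 without control 2. The share of choroid plexus tissue in the 3 samples was not measured, and its part in these values was not tested.

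Several cortical neuron genes were lowest on control 2. The pentraxin gene Nptx1 had signals of 4868, 1726 and 3672, and Neurod2, a transcription factor gene of glutamatergic neurons, had signals of 1861, 771 and 1064. These were the 2 genes over 2-fold among the 8 of 13 measured cortical genes above the threshold. Of all genes, 63.9% were above the threshold, and 1.66% of those varied over 2-fold. The transcription factor gene Mef2c (15754, 10225 and 14561) and the complexin gene Cplx2 (13159.7, 10681 and 11773) were also lowest on control 2, and in all 5 of the 8 genes were, against 38.2% of all genes above the threshold. Below the threshold, and looked at after this pattern was seen, Neurod6 (1089, 267 and 528) and Tbr1 (851, 266 and 477) had the same order as Neurod2. The other genes below it did not. Cux2 (551, 385 and 603) and Slc17a6 (369, 184 and 753) were lowest on control 2 but highest on control 3. Fezf2 (88.8, 393 and 485) was lowest on control 1. Nrgn, a calmodulin-binding protein gene of forebrain neurons that spiny neurons also transcribe, went the other way (30889, 34832 and 29259.6), and Rorb (1945, 2227 and 2189) was highest on control 2. The median deviation of the 8 genes from their own means was 0.06, -0.28 and 0.09 on the log2 scale, against 0.01, -0.01 and 0.00 over all genes above the threshold. The summed signal of the 13 genes, 73071, 63414 and 67866, was dominated by Nrgn and differed less. With the 8 genes and their probe sets held fixed, 0 varied over 2-fold without control 2 and 1, Nptx1, did without control 1. The second probe sets of Nptx1 (3183, 2392 and 3804) and Mef2c (10164, 8364 and 9729.5) were also lowest on control 2. On the probe sets that stand for each gene, control 2 was also the array with the most shared spiny neuron and oligodendrocyte genes at their highest. Of the 12 second probe sets in each of these lists, 7 were highest on control 2, where 42.1% of all 3004 were. Adjacent cortex in the dissected pieces was not measured, and its part was not tested.

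Most immediate early genes, which neurons transcribe within minutes of activity, were highest on control 3. The zinc finger gene Egr1, the brightest of the list and rank 69 of all genes, had signals of 33872, 32978 and 42290.2. The orphan receptor gene Nr4a1 had signals of 13951, 15997 and 18540.0, and Arc, whose product acts at synapses, had signals of 6311, 11895 and 12024. Control 3 was highest for all 3 genes and far above control 1 for Arc. Of the 31 of 35 measured genes above the threshold, 19 were highest on control 3, where 28.3% of all genes were highest, and 2 were lowest there, where 28.4% of all genes were lowest. The 2 genes over 2-fold (1.66% of all genes above the threshold) were Egr2 and Bdnf, and Bdnf was lowest on control 2 instead. With the 31 genes held fixed, 1 varied over 2-fold whichever array was left out, Bdnf without control 1 or control 3 and Egr2 without control 2. In the order of Nr4a1, from low to high on control 1, control 2 and control 3, fell 9 of the 31 genes, where 14% of all genes did. Egr1, Jund (22809, 23853 and 22325) and Dusp14 (9719, 9021 and 12001) were among those that did not. The ratio of 3' to 5' signal was also highest on control 3 for 3 of 4 control transcripts, at 3.38 for pyruvate carboxylase against 2.93 and 2.46 on controls 1 and 2, and at 2.81 for the transferrin receptor against 2.22 and 2.20. The part of RNA integrity in these values was not tested. Among the 8 second probe sets of the list, 4 were highest on control 2 (42.1% of all 3004), 3 were highest on control 3 (25.4%), 1 was highest on control 1 (32.5%) and 0 were lowest on control 3 (32.2%).

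Heat shock and chaperone genes were also mostly highest on control 3. All 28 were above the threshold, 18 were highest on control 3 (28.3% of all genes above the threshold) and 19 were lowest on control 1 (33.4%), and 13 fell in the order of control 1, control 2, control 3 from low to high, as 14% of all genes did. The constitutive chaperone gene Hspa8 had signals of 41417, 45413 and 51526, and 26287, 51852 and 51775 on the second probe set, where control 1 was again lowest. The small heat shock protein gene Hspb1 had signals of 3160.0, 4201 and 5576. The co-chaperone gene Chordc1 had signals of 3199, 4065 and 5118, and the endoplasmic reticulum chaperone gene Calr had signals of 23285, 27337 and 28254, and 24166, 20998 and 27418 on the second probe set, lowest on control 2. The inducible gene Hspa1b was the 1 gene over 2-fold, with signals of 335, 511 and 1428 and a mean close to the threshold. Its near-identical copy Hspa1a had signals of 651, 777 and 1065, and probe sets may not separate the copies. Without control 3, Hspa1b no longer varied over 2-fold. Hspa4 (10974, 7248 and 12039.7) and Dnajb5 (6920.3, 4261 and 6660.3) were lowest on control 2 instead. Among the 15 second probe sets of the list, 7 were highest on control 3 (25.4% of all 3004), 10 were lowest on control 1 (39.8%) and 0 were lowest on control 3 (32.2%). The sources used here do not give the time from handling to tissue collection for each mouse.

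Promoter sequences of 4 of these genes are shown because heat shock genes are known to be switched on through heat shock elements and immediate early genes through cAMP response elements. They run from 250 bases before to 50 bases after the transcription start, from RefSeq on GRCm38.p6, 5′ to 3′ on the strand of the gene. A promoter was listed for 6434 of the 7914 genes above the threshold. Capitals mark GAANNTTC or TTCNNGAA, the core pair of a heat shock element, in the promoters of Hspa1b (chr17:34959189-34959488, minus strand), Hspb1 (chr5:135887669-135887968, plus strand) and Chordc1 (chr9:18292017-18292316, plus strand). In Nr4a1 (chr15:101266596-101266895, plus strand) they mark TGCGTCA or TGACGCA, a variant of the cAMP response element.
Hspa1b: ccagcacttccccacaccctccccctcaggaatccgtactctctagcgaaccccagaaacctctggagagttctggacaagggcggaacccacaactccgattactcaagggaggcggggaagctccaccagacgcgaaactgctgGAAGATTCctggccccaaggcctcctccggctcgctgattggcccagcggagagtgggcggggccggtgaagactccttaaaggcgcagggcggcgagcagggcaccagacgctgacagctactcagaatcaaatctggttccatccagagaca
Hspb1: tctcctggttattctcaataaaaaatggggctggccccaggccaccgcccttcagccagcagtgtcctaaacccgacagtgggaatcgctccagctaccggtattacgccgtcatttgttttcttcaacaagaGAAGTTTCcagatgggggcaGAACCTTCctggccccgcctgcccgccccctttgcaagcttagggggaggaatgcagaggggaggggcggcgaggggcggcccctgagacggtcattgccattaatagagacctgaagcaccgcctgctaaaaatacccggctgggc
Chordc1: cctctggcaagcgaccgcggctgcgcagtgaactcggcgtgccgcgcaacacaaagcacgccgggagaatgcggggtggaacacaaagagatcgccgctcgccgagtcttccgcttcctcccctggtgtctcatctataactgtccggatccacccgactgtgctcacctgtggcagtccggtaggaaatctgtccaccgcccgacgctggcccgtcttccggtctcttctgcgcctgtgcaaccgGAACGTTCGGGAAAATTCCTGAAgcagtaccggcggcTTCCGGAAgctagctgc
Nr4a1: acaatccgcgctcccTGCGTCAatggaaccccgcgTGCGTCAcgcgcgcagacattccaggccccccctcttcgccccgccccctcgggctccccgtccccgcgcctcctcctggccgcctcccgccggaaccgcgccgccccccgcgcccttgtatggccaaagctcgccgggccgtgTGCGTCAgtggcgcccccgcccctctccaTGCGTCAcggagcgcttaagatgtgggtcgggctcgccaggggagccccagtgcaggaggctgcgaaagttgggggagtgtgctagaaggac
Hspa1b held 1 match, Hspb1 2, Chordc1 5, in part overlapping, and Nr4a1 4. Searched on both strands, the core pair was present in 15.1% of all 32841 promoters, and the pair extended by 1 further unit at the same spacing, a triple, in 0.603%. By gene, the core pair was found for 9 of the 23 heat shock and chaperone genes with a promoter, with Hspa1b, Hspb1 and Chordc1 among the 9. It was found for 6 of 25 immediate early genes and for 17.0% of all 27018 genes. The triple was found for 4 of the 23, Hspd1, Hspe1, Hsph1 and Chordc1, and for 179 of all 27018 genes (0.663%). The variant cAMP response element was found in 2.12% of all promoters, for 2.42% of genes and for 2 of 25 immediate early genes, Fosb and Nr4a1. The serum response element was found in 1.63% of all promoters, for 1.81% of genes and for 2 of the 25, Egr2 and Zfp36. A match describes the letters of the window and does not show that a factor was bound.

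Clock genes were above the threshold in 18 of 19 cases. Dbp, whose product drives rhythmic output genes, was the 1 gene over 2-fold, with signals of 12234, 6120.3 and 5426, and its second probe set gave 7763, 6109 and 4627. The related gene Tef had signals of 25921, 16738 and 19515, and the clock repressor gene Nr1d2 had signals of 14446, 10736 and 11409. On these probe sets the 3 genes were highest on control 1, but the second probe sets of Tef (4038, 5915 and 3667) and Nr1d2 (2409, 2469 and 2184) were highest on control 2, as were 6 of 10 in the list (42.1% of all 3004). Arntl, which encodes the activator BMAL1 and peaks at the opposite time of day to Dbp, had signals of 2441, 4088 and 4085, lowest on control 1. Cry1 was highest on control 2 (797, 1509.8 and 778). The sources used here do not give the hour of dissection for each mouse, and its part was not tested.

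**Figure D5:**
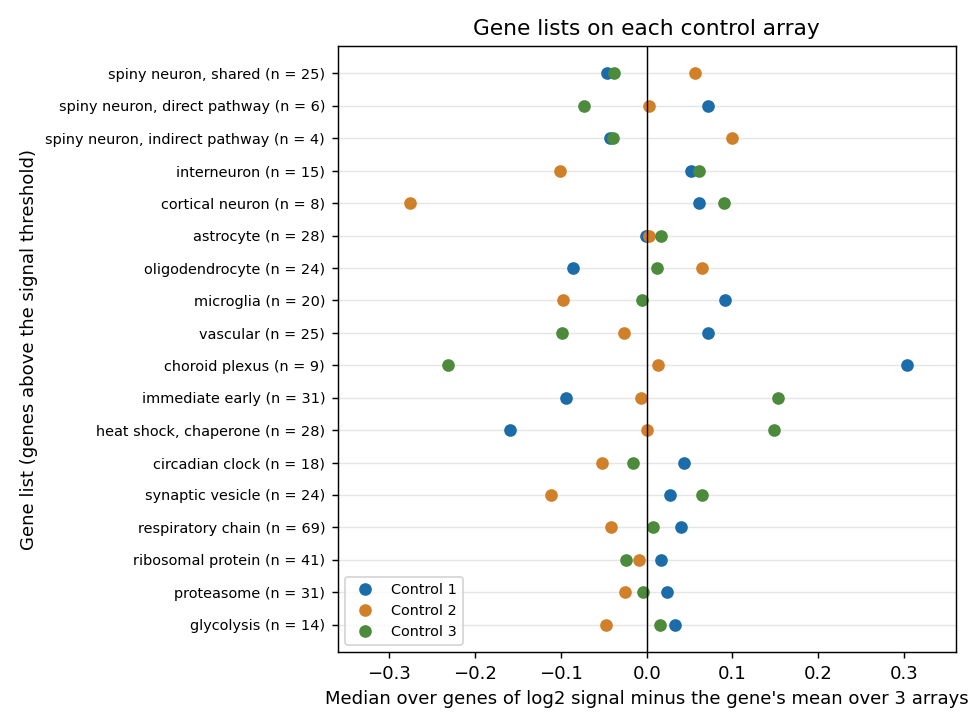
Median over the genes of a list of log2 signal minus the gene's own mean over 3 arrays (horizontal axis), for each control array, in 18 gene lists with the number of genes above the threshold. Control 1 lies apart at 0.30 for choroid plexus genes, control 2 at -0.28 for cortical neuron genes and control 3 at 0.15 for immediate early and heat shock genes, while astrocyte, ribosomal and proteasome genes lie close to 0 on every array.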

How the data were processed

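Striatal RNA was extracted with Qiagen reagents, labelled with biotin and hybridised to single-colour Affymetrix mouse expression arrays, per the labels' protocols. The deposited values are intensity on a linear scale, not centred by gene, with equal trimmed means of 2501 and medians of 1124, 1127 and 1110.5 on controls 1, 2 and 3. RMA is named, with no version, in the submitters' processing notes, but it usually gives a log scale, so the summary method is unsettled. Direction between dyes does not apply. The array named by the submitters is larger than the one whose annotation matched. Of 22690 probe sets, 20380 had 1 gene symbol, 691 several and 1555 none, and 64 were array controls. Of the 20380, 20351 were found in the RefSeq table of GRCm38.p6, and 0 symbols changed.

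Python 3.11.15 with pandas 2.3.3, numpy 2.4.6 and matplotlib 3.10.9 was used. Each gene took its probe set of highest mean signal, and 3004 had another above the threshold of 741, which was taken from earlier work on the series. SD and fold were computed over 3 arrays on signals as deposited, and the code was tested on simulated data. No test between groups was made, since 1 group is described. A single array for each mouse leaves biological and technical spread joined. Genes were named by rule: the 25 brightest, the 25 of largest and 10 of smallest SD, the brightest and most variable of 29 lists (738 genes, 612 measured), all markers of the spiny neuron pathways and those nearest the threshold. Exceptions are stated. The look at other probe sets and the promoter search were added after the data were seen. Members and lists were chosen with earlier results of these data known. Alternatives were the scaling, probe set, filter, pseudocount of 50, measure of spread and each array left out.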

Additional observations from a re-analysis of the deposited data

How the results depend on the processing

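The count of genes above the threshold ran from 5966 to 7946 over the alternatives. The signals of Penk, Ppp1r1b, Drd2 and Tac1 moved by less than their SD in all 44 recomputations, but most of these could not show otherwise. Filters and the pseudocount leave a mean signal unchanged, and leaving out 1 of 3 values cannot move a mean by its SD. Rescaling the arrays could, and it gave Penk means of 55247 by medians and 55301 by quantiles, against 55245. The count of genes over 2-fold, 131, depended on the filter on low signal: it was 54 with every array above the threshold, 44 at a threshold 2 times as high and 1932 with no filter. Leaving out each array gave 45 to 88, with 45 without control 1 and 48 without control 2, and 49, 43 and 86 without control 1, 2 and 3 with genes and probe sets held as chosen on 3 arrays, an alternative added after the data were seen, as a range over fewer arrays is narrower. The median SD of log2 signal, 0.14, was 0.190 with no filter and 0.0979 to 0.131 without 1 array. The list genes over 2-fold, 17 of 500, numbered 11 with the mean of all probe sets of a gene, 11 with every array above the threshold, 9 at the higher threshold, 59 with no filter, 5 to 11 without 1 array and 7 to 9 without 1 array on fixed genes. Without 1 array, the brightest probe set of a gene and its side of the threshold can shift, which alone took Bdnf and Nptx1 out of the count without control 1. Hspa1b was not over 2-fold where probe sets marked as shared between transcripts were left out. Quantile normalization kept 124 of the 131 genes, and the mean of all probe sets of a gene kept 76. Without control 1, 2 and 3 in turn, 39, 39 and 76 of the 131 were kept. No paired analysis was possible because 1 group is described, and its replicate numbers pair with no sample of that group. Precision is limited by the 3 arrays, and dim genes have the widest spread.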

Other observations

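Interferon-responsive genes reached the threshold in 13 of 27 cases, and most of the antiviral genes of the list, such as Mx1 (mean 144) and Oas1b (249), did not. The antigen presentation genes were the brightest of the list. The light chain gene B2m had signals of 9032, 10774 and 11956, and the class I gene H2-K1 had signals of 2712, 4979.6 and 5455, the 1 gene over 2-fold. Its second probe set had signals of 1810.2, 2216 and 1842, a narrower range. Class I genes are near-identical to each other, so probe sets may not separate them. The transcription factor gene Irf1 (995, 1446 and 1812) had the same order as B2m, whose second probe set gave the reverse order.

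Glucocorticoid-responsive genes reached the threshold in 15 of 19 cases, with 0 over 2-fold. The metallothionein genes Mt1 (28185, 29637 and 27488) and Mt2 (19002, 15338 and 16751) and the transcription factor gene Klf9 (27931, 25798 and 23477) were the brightest. The cell cycle inhibitor gene Cdkn1a had the widest spread, 2017, 1079 and 1972, lowest on control 2, and the metabolic kinase gene Pdk4 had signals of 676, 816 and 919. The median deviation of this list lay within 0.04 of 0 on every array, unlike that of the immediate early and heat shock genes.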
